A study of Rattus norvegicus with 10 samples.

Results

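The genes described here are 7 that mark astrocytes: Gfap, Aqp4, Slc1a2, Slc1a3, Gja1, S100b and Aldh1l1. Every probe set that the annotation of this Affymetrix rat genome array assigned to 1 of these genes and to no other was taken, which gave 14 of the 31042 probe sets and 7 of the 14217 genes measured. Aqp4, Slc1a3 and Gja1 had 3 probe sets each, Slc1a2 had 2, and Gfap, S100b and Aldh1l1 had 1 each. The C group was fed solid chow and the P group powdered feed, both for 8 days, and hypothalamic RNA from each rat was hybridized to 1 array. All were male Wistar rats, 3 weeks old when the study began and 4 weeks old at sampling, and both groups had been accustomed to powdered feed beforehand. There were 5 rats per group, called Chow 1 to Chow 5 and Powder 1 to Powder 5 below. The question was whether chewing solid feed goes with a different hypothalamic mRNA profile at weaning.

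Astrocytes are the glial cells that line brain capillaries with their endfeet, clear glutamate and potassium released by neurons, and form a network joined by gap junctions. In the hypothalamus they also sense glucose and circulating hormones, and their processes around neurosecretory neurons retract and extend with physiological state. None of the 7 markers belongs to astrocytes alone: tanycytes and ependymal cells lining the third ventricle share Gfap, Aqp4 or Slc1a3 in part, and some oligodendrocytes contain S100b. In a whole-tissue extract, fewer cells of a type and less RNA per cell cannot be told apart.

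All values are the log2 signals as deposited, and a difference is always the C group minus the P group. The authors' summarization left most of the array nearly constant: 92.6% of all probe sets were flat, defined as a standard deviation (SD) over the 10 rats below 0.001, and 4.48% varied, defined as an SD above 0.1. Pairs of arrays correlated at 0.997 to 0.9991. Chow 1 and Chow 4 were the 2 highest rats in a list of 17 genes of the leptomeninges, the membranes that cover the brain. Its per-rat score, the mean log2 deviation of its varying genes from their average over the 10 rats, was 0.86, -0.21, -0.46, 0.68 and -0.24 in Chow 1 to Chow 5 and -0.72, 0.29, 0.46, -0.44 and -0.21 in Powder 1 to Powder 5. Of the 17 genes, 16 were called higher in the C group, while without Chow 1 and Chow 4 there were 0 called higher and 9 lower. Both are chow rats with the highest scores of this list, so the change in its calls follows from leaving them out. Over all 31042 probe sets the calls were 292 higher and 254 lower, and 49 and 251 without them. The differences of the astrocyte probe sets that were not flat, and of genes called in other lists, are also given without these 2 rats. Powder 1, at -0.72, lay farther from average than Chow 4 at 0.68 and was kept. Leaving out 2 high rats of the C group by itself lowers the difference of any probe set that follows this score. The part of leptomeningeal tissue in these differences was not tested. Hypothalamic peptide genes were read in all 10 rats, with Pmch at 12.44 to 13.15 and Hcrt at 9.94 to 10.96.

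Gfap and Aldh1l1 were the pair of different astrocyte genes whose values went together most closely, as described below, so bases before their annotated starts are shown, 250 for Gfap and 212 for Aldh1l1, 5′ to 3′ on the gene's own strand, from RefSeq on the GRCr8 build. The Gfap stretch lies on the minus strand at chr10:88361662-88361911 and the Aldh1l1 stretch on the plus strand at chr4:124616970-124617181, where the Aldh1l1 stretch of RefSeq's promoters was cut at the outermost start of the gene. Capitals mark a CCAAT box, read here on the opposite strand as ATTGG.
Gfap: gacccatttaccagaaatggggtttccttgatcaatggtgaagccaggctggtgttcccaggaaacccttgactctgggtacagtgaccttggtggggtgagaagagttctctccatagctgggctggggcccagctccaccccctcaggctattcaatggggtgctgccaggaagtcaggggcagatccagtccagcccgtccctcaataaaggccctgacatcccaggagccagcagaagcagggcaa
Aldh1l1: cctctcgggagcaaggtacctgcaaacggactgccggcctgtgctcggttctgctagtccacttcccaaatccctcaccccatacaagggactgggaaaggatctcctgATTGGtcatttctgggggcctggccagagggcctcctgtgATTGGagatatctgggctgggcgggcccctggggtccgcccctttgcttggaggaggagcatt
The 5 letters CCAAT occurred 2 times before Aldh1l1 and 0 times before Gfap, counting both strands, and 30.3% of all promoter stretches of 212 bases and 34.0% of those of 250 bases held them. The GC box GGGCGG also occurred 2 times before Aldh1l1 and 0 times before Gfap, against 26.1% of stretches of 212 bases and 30.5% of stretches of 250 bases with at least 1. Neither stretch held the TATA box core TATAA (in 20.5% of all stretches of 212 bases and 24.0% of those of 250), the NFI motif TTGGC (35.8% and 40.3%), the STAT motif TTCNNNGAA (6.63% and 7.67%), the AP-1 motif TGANTCA (5.49% and 6.34%) or the E box CANNTG (59.8% and 65.5%). A match of letters is a description and not a binding site.

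Of the 14 astrocyte probe sets, 5 varied, 7 were flat and 2 lay between. The varying probe sets were Gfap 1368353_at with an SD of 0.191, Aqp4 1368981_at with 0.153, Aldh1l1 1368378_at with 0.121, Slc1a3 1368565_at with 0.118 and Aqp4 1372190_at with 0.114. The SD of Gfap exceeded that of 98.3% of the array. Slc1a3 1388064_a_at, with an SD of 0.0968, lay just below the limit of 0.1, and S100b had an SD of 0.0644. Both Slc1a2 and all 3 Gja1 probe sets were flat, so the main glutamate transporter of astrocytes and their main gap-junction protein gave almost no difference between rats to describe. The remaining flat ones were Aqp4 1387397_at and Slc1a3 1371130_at, each a probe set of a gene with another that varied. The median SD over the 14 was 0.0323, against 0.000155 over the whole array. Counted as genes, by the probe set of highest mean, 4 of the 7 astrocyte genes varied, against 5.56% of the 14217 genes on the array. The 7 genes were chosen with earlier results of these data known, so this comparison is a description and not a test.

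**Figure D1:**
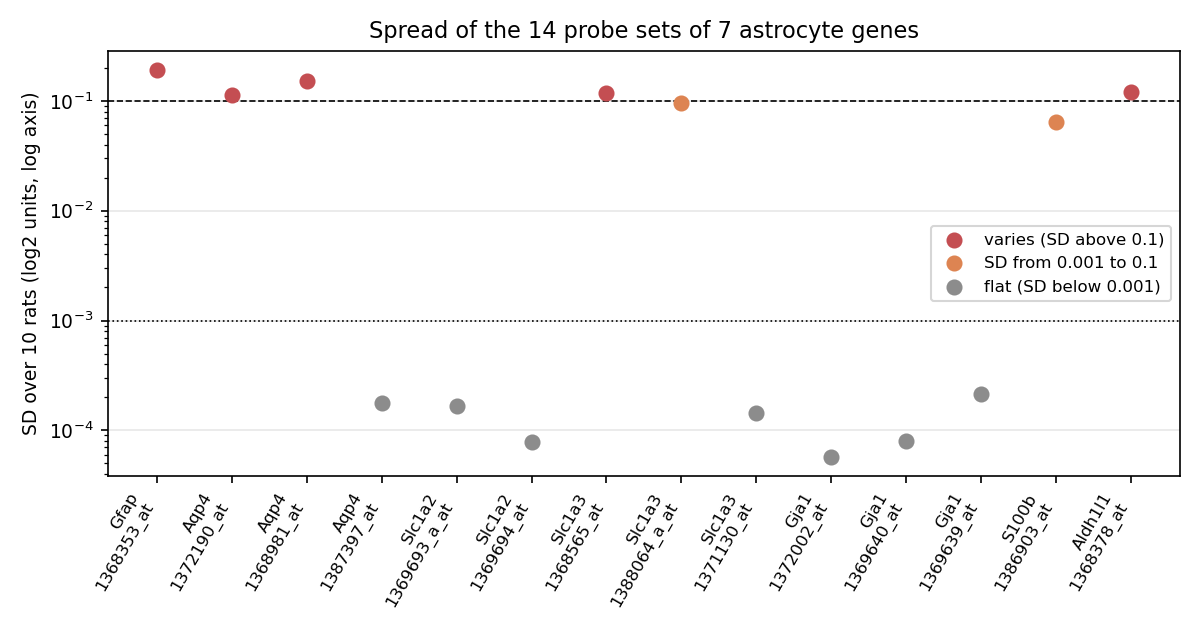
The plot gives the SD over 10 rats, in log2 units on a log axis, of each of the 14 astrocyte probe sets, with the limits for varying (0.1, dashed) and flat (0.001, dotted). The 7 flat probe sets lie at or below 0.000213, and all others at or above 0.0644.

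Gfap encodes glial fibrillary acidic protein, the intermediate filament of astrocytes, and lies on chromosome 10 from 88352987 to 88361661 on GRCr8. Its log2 signals were 11.25, 10.86, 10.76, 10.94 and 10.95 in Chow 1 to Chow 5 and 10.58, 10.67, 11.01, 10.94 and 10.75 in Powder 1 to Powder 5. Chow 1 was the highest of all rats and Powder 1 the lowest, and the groups overlapped, with 1 chow rat above every powder rat and 4 of 5 above the powder mean. Chow rats averaged 10.95 ± 0.18 and powder rats 10.79 ± 0.18 (SD, n = 5 each). The difference was 0.16 (standard error 0.11 in limma, 95% interval -0.093 to 0.41), a fold of 1.12. It was smaller than the SD within either group. An exact permutation test over all assignments of 5 against 5 rats gave a two-sided p of 0.183, where the smallest possible p is 0.00794. By rank products, the ranking test named in the study's methods, Gfap was nevertheless called higher in the C group at a false discovery rate (FDR) of 0.0218. Without Chow 1 and Chow 4 the difference was 0.065, with an FDR of 0.433, and without Chow 1 alone it was 0.086, with an FDR of 0.153. The call was also lost without Chow 4, Chow 5, Powder 1 or Powder 2, each left out singly. Without Chow 4 the FDR was 0.05, at the threshold itself.

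Aqp4, on chromosome 18, encodes aquaporin-4, the water channel of astrocyte endfeet. Its probe set of highest mean, 1372190_at, read 12.54, 12.54, 12.31, 12.29 and 12.43 in Chow 1 to Chow 5 and 12.40, 12.38, 12.30, 12.17 and 12.41 in Powder 1 to Powder 5. Here 3 chow rats, Chow 1, Chow 2 and Chow 5, exceeded all powder rats, while Chow 3 and Chow 4 lay within the powder range. The means were 12.42 ± 0.12 for chow rats and 12.33 ± 0.10 for powder rats (SD, n = 5 each), a difference of 0.088 (standard error 0.067, 95% interval -0.065 to 0.24, exact permutation p = 0.206). Rank products called this probe set higher in the C group at an FDR of 0.0444, close to the threshold of 0.05. Without Chow 1 and Chow 4 the difference was 0.093 but the FDR was 0.181, and the call was also lost without Chow 1, Chow 2, Chow 5, Powder 3 or Powder 4 singly.

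The second varying Aqp4 probe set, 1368981_at, ordered the rats differently. It read 9.17, 9.04, 8.93, 8.89 and 8.74 in Chow 1 to Chow 5 and 8.97, 8.97, 8.997, 8.99 and 8.63 in Powder 1 to Powder 5. Chow 1 and Chow 2 were again on top, but Powder 5 and Chow 5, both above average on the first probe set, were the lowest. The difference was 0.041 (standard error 0.098, 95% interval -0.18 to 0.26, exact permutation p = 0.698, FDR 0.316), and -0.0085 without Chow 1 and Chow 4. The third Aqp4 probe set stayed between 8.7568 and 8.7573 in every rat.

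Slc1a3, on chromosome 2, encodes the glutamate transporter GLAST. Its probe set 1368565_at read 11.87, 11.73, 11.77, 11.53 and 11.95 in Chow 1 to Chow 5 and 11.80, 11.75, 11.62, 11.73 and 11.73 in Powder 1 to Powder 5. The C group held both extremes, Chow 5 and Chow 4, and the P group lay between them. The difference was 0.040 (standard error 0.075, 95% interval -0.13 to 0.21, exact permutation p = 0.627, FDR 0.148), and 0.085 without Chow 1 and Chow 4. Probe set 1388064_a_at read 10.07, 9.94, 9.98, 9.81 and 10.01 in Chow 1 to Chow 5 and 10.12, 10.004, 9.91, 9.87 and 9.86 in Powder 1 to Powder 5. Powder 1 was highest and Chow 4 again lowest, with a difference of 0.0087 (standard error 0.063, 95% interval -0.13 to 0.15, exact permutation p = 0.889, FDR 0.290), and 0.023 without Chow 1 and Chow 4. The other Slc1a3 probe set stayed between 7.5737 and 7.5742.

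Aldh1l1, on chromosome 4 from 124617182 to 124663674, encodes a folate enzyme that is widely used as a pan-astrocyte marker. It read 8.96, 8.81, 8.74, 8.93 and 8.73 in Chow 1 to Chow 5 and 8.56, 8.71, 8.79, 8.93 and 8.81 in Powder 1 to Powder 5. Chow 1 was highest and Powder 1 lowest, as for Gfap, and Chow 4 and Powder 4 shared the next value. The difference was 0.073 (standard error 0.074, 95% interval -0.096 to 0.24, exact permutation p = 0.389, FDR 0.116), and without Chow 1 and Chow 4 it was -0.00037.

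S100b, on chromosome 20, encodes a calcium-binding protein that astrocytes secrete. It read 12.75, 12.70, 12.91, 12.87 and 12.85 in Chow 1 to Chow 5 and 12.87, 12.85, 12.85, 12.78 and 12.79 in Powder 1 to Powder 5. Chow 1 and Chow 2, the top rats on both varying Aqp4 probe sets, were the lowest here. The difference was -0.012 (standard error 0.041, 95% interval -0.11 to 0.082, exact permutation p = 0.762), the only negative one among the 7 probe sets that were not flat. Without Chow 1 and Chow 4 it was -0.0069.

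Slc1a2, on chromosome 3, encodes the transporter GLT-1, and Gja1, on chromosome 20, encodes the gap-junction protein Cx43. The 2 Slc1a2 probe sets stayed between 7.7487 and 7.7493 and between 7.2183 and 7.2185. The 3 Gja1 probe sets stayed between 12.5224 and 12.5226, 9.137 and 9.1373, and 6.0456 and 6.0463. The summarization sets a probe set almost flat where its probes share little signal, so these values do not show that the transcripts were equal between rats.

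**Figure D2:**
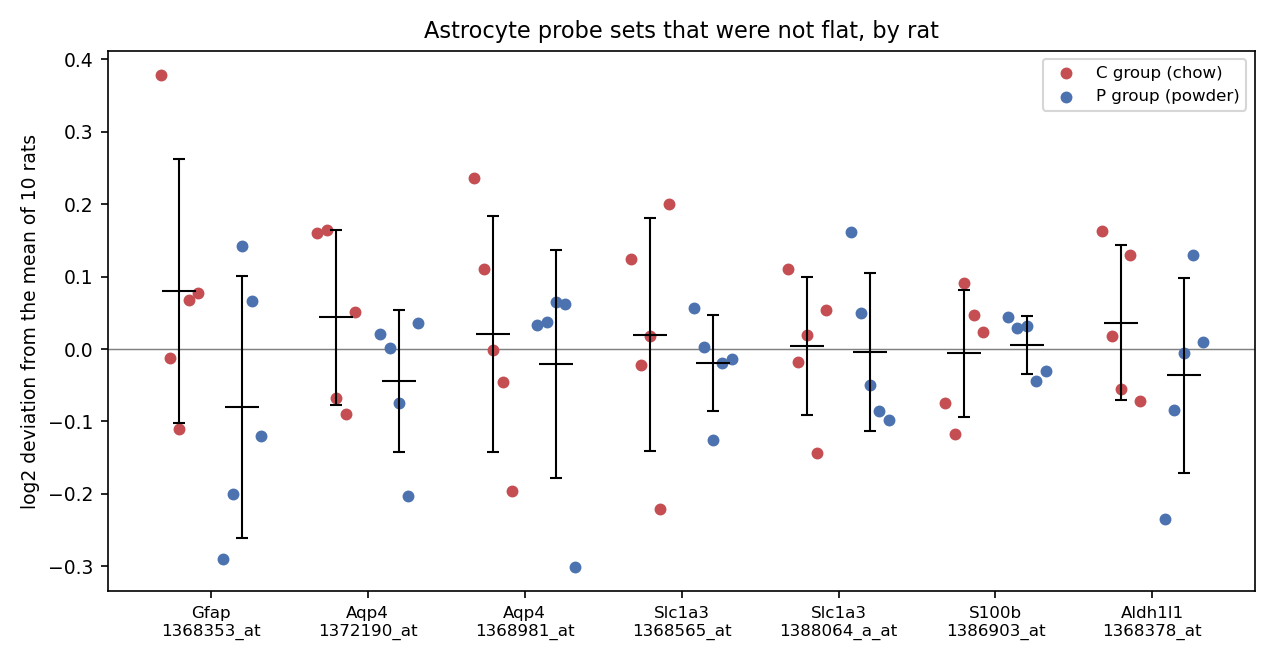
The plot gives log2 deviations from the mean of 10 rats for the 7 astrocyte probe sets that were not flat, with 1 point per rat, the C group left of the P group, and bars for mean ± SD (n = 5 each). The groups overlap in every probe set, and the widest gap between means is the 0.16 of Gfap.

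Over the 14 astrocyte probe sets, rank products called 2 higher in the C group and 0 lower, against 0.941% and 0.818% of the array. Rank products favour probe sets that vary, and among the 1391 varying ones 20.3% were called higher and 14.9% lower, against 2 and 0 of the 5 varying astrocyte probe sets. With 1 probe set per gene the shares of the array were 1.22% higher and 0.83% lower, against 2 and 0 of 7 genes. The astrocyte genes were chosen with earlier results of these data known. The shares are therefore a description and do not test whether astrocyte genes are called more often than others. Limma called 0 astrocyte probe sets at an adjusted p below 0.05, as it did for 0% of the array, with an adjusted p of 0.9995 for each of them and 0.986 as the smallest anywhere. At an unadjusted p below 0.05 it found 0 of the 14, against 3.54% of the array, and exact permutation found 0 as well. The diets overlapped in all 14, whereas the groups did not overlap in 0.432% of probe sets. All 5 varying astrocyte probe sets had a positive difference, with a median of 0.073, beside 65.1% positive and a median of 0.031 over the 1391 varying probe sets of the array. Over all 14 the median was 0.00014, and over the array it was -2.7e-06.

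**Figure D3:**
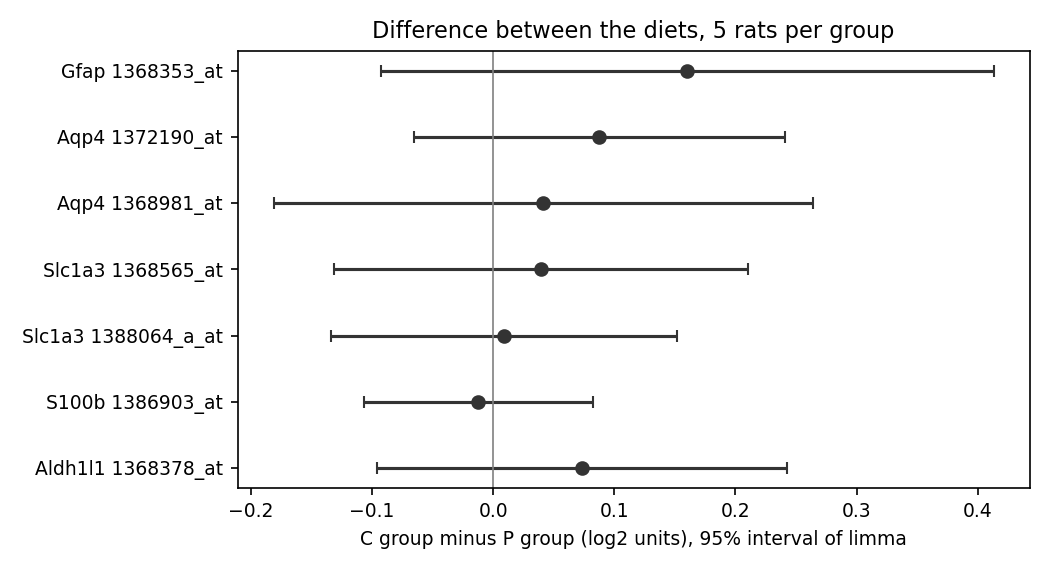
The plot gives the difference, C group minus P group in log2 units, with its 95% interval from limma, for the 7 astrocyte probe sets that were not flat (5 rats per group). Every interval includes 0, and that of Gfap reaches from -0.093 to 0.41.

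Agreement between probe sets of 1 gene could be measured for 2 genes, since it needs 2 probe sets that are not flat. The 2 Slc1a3 probe sets ordered the rats alike: Pearson r was 0.74 and Spearman rho 0.83 over 10 rats (permutation p = 0.0138 and 0.00462, or 0.0276 and 0.00924 after Benjamini-Hochberg adjustment over these 2 relations). All 10 rats lay on the same side of average on both. Without Chow 4 and Chow 5, the rats farthest from the median, r was 0.71, and with group means removed it was 0.74. By r the relation missed the adjusted threshold without Chow 1 (r = 0.69) and without Chow 4 (r = 0.61). By rho it passed in both cases (rho = 0.82 and 0.77, adjusted permutation p = 0.0224 and 0.0437). The 2 Aqp4 probe sets did not agree in this way, with r = 0.15 and rho = 0.16 (permutation p = 0.690 and 0.658) and 6 of 10 rats on the same side. Without Chow 2 and Powder 4 their r was 0.19. The Aqp4 call therefore rests on 1 of 3 probe sets.

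Whether different astrocyte genes were high in the same rats was asked for the 4 varying genes, in 6 relations. Gfap and Aldh1l1 had r = 0.78 over 10 rats (permutation p = 0.00816, adjusted over the 6 relations 0.0490), but rho = 0.61 (permutation p = 0.0659, adjusted 0.395). Chow 1 was the highest and Powder 1 the lowest of all rats on both, and without these 2 rats r was 0.47. Leaving out both ends of a range tends to lower r by itself, so this value alone does not settle how far the relation rests on them. Within the C group, which holds Chow 1, r was 0.72, and within the P group, which holds Powder 1, it was 0.79. The adjusted threshold was also missed with Chow 1, Chow 2, Chow 3, Chow 4, Powder 1, Powder 2 or Powder 4 left out singly (r = 0.67 to 0.80). On both genes 6 of 10 rats lay on the same side of average. With group means removed r was 0.75 (adjusted permutation p = 0.0765), and without Chow 1 and Chow 4 it was 0.69 (adjusted 0.326).

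The other relations were weaker and none passed the test. Aqp4 1372190_at and Slc1a3 1368565_at had r = 0.49 and rho = 0.50 (adjusted permutation p = 0.434 and 0.425), with r = 0.76 when Chow 2 and Powder 4 were left out and 0.29 without Chow 1 and Chow 4. Slc1a3 and Aldh1l1 had r = -0.31 and rho = -0.36 (adjusted permutation p = 0.771 and 0.629), and 0.059 when Chow 4 and Chow 5 were left out. Gfap and Aqp4 1372190_at, the 2 called probe sets, had r = 0.15 and rho = 0.018 (adjusted permutation p = 0.876 and 0.973), and r = -0.29 without Chow 1 and Powder 1. Only 3 of 10 rats lay on the same side of average on both, and both genes were above average in Chow 1 and Chow 5 alone. Gfap and Slc1a3 had r = 0.057 and rho = -0.067 (adjusted permutation p = 0.876 and 0.973), and -0.21 without Chow 1 and Powder 1. Aqp4 and Aldh1l1 had r = -0.11 and rho = -0.055 (adjusted permutation p = 0.876 and 0.973), and 0.15 without Chow 2 and Powder 4.

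**Figure D4:**
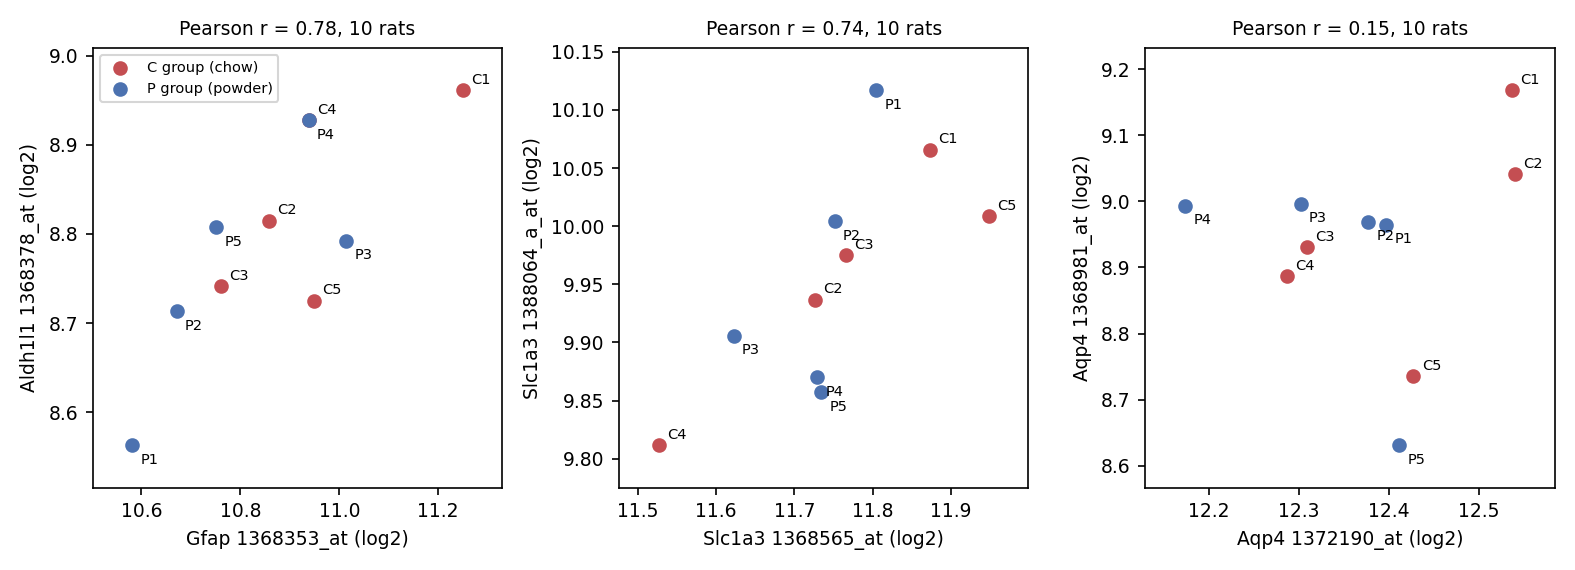
Each panel sets the log2 signal of 1 astrocyte probe set against another, with 1 labelled point per rat (C for the C group, P for the P group; C4 lies under P4 in the Gfap panel). Gfap and Aldh1l1 follow each other with C1 and P1 at the ends, both Slc1a3 probe sets follow each other over the whole range, and the Aqp4 probe sets part at C5, P5 and P4.

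A single rat recurred at the top. Chow 1 was the highest rat in 8 of the 14 astrocyte probe sets, among them Gfap, Aldh1l1, 2 of the Aqp4 and all 3 Gja1 probe sets, although in the flat ones by less than 0.001. It was the highest rat in 10.6% of all probe sets and in 27.4% of the varying ones. Among the 5 varying astrocyte probe sets it was the highest in 3, Gfap, Aldh1l1 and Aqp4 1368981_at. Chow 4, the other rat rich in leptomeningeal transcripts, was the highest in 0 of the 14 and the lowest in 4, among them both Slc1a3 probe sets that were not flat. Gfap was above average in Chow 1, Chow 4, Chow 5, Powder 3 and Powder 4. The leptomeningeal score was above average in Chow 1, Chow 4, Powder 2 and Powder 3, and its lowest rat was Powder 1, the lowest for Gfap. S100b, by contrast, was below average in Chow 1.

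**Figure D5:**
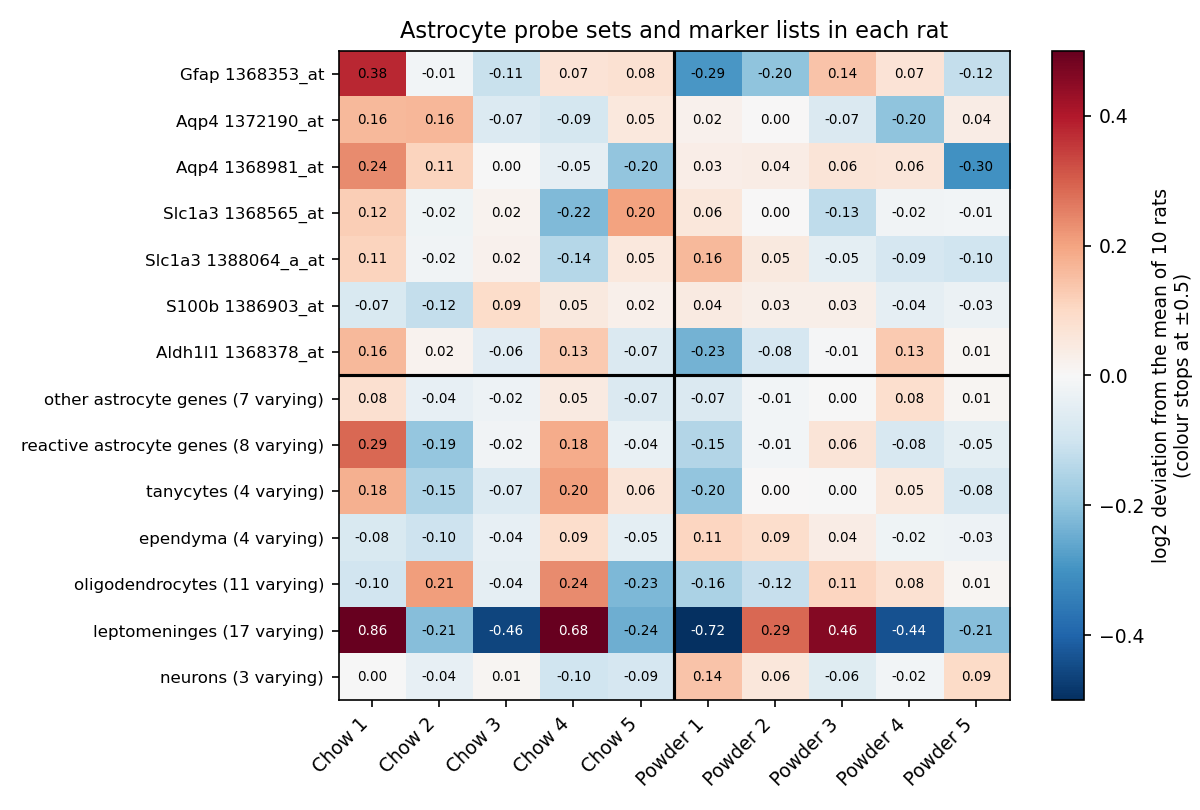
Each cell gives the log2 deviation of 1 rat from the mean of 10 rats, for the 7 astrocyte probe sets that were not flat (above the line) and for the scores of 7 marker lists (below it), with the C group left of the P group. Chow 1 is at 0.38 for Gfap and 0.86 for the leptomeninges, and Chow 4 at 0.68 for the leptomeninges but at -0.22 for Slc1a3 1368565_at.

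The genes whose values were most like those of each varying astrocyte gene were taken from 1013 or 1014 varying probe sets naming 1 other gene, as a description over 10 rats. Gfap went with A2m (r = 0.97), a protease inhibitor, Fmo1 (0.94), a flavin monooxygenase, Lcat (0.92), which esterifies cholesterol on lipoproteins, Id3 (0.87), an inhibitor of differentiation, and Txnip (0.87), a thioredoxin-binding protein. A2m, Fmo1, Lcat and Txnip were themselves called higher in the C group, as were 20.3% of all varying probe sets. Gfap was itself called higher and these genes were picked for following it in the same rats, so their calls are no separate result. Aldh1l1 went with Fgfbp3 (0.93), Scd (0.91), a fatty acid desaturase, Inf2 (0.88), Rapgef5 (0.87) and Id1 (0.87). Slc1a3 1368565_at went with Ccdc30 (0.92), Ldb2 (0.88), Plppr4 (0.85), Cpne5 (0.83) and Gria2 (0.83), an AMPA receptor subunit. Aqp4 1372190_at had no probe set as close, its nearest being Ccdc77 (0.74), Serinc1 (0.74), Slc30a3 (0.72), Acyp2 (0.71) and LOC102549828 (0.71). Of these, LOC102549828 was called higher in the C group and Ccdc77 both higher and lower. No gene stood in more than 1 of the 4 sets.

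Among 36 other genes known from astrocytes, 30 were matched, such as Glul and Aldoc. Of these, 7 varied, 0 were called higher in the C group and 1 lower, Cbs, an enzyme of hydrogen sulfide synthesis, with a difference of -0.057 (standard error 0.062, exact permutation p = 0.452), and of -0.12 without Chow 1 and Chow 4, where it was called as well. The median difference was -4.3e-05 over the 30 genes, of which 17 were flat, and -0.010 over the 7 varying genes. The per-rat score of the list spanned -0.072 to 0.081 in chow rats and -0.071 to 0.084 in powder rats. Of its 7 varying genes, 2 had a positive difference.

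Of 20 genes raised in reactive astrocytes, 19 were matched and 8 varied. Cp, which encodes the ferroxidase ceruloplasmin, was called higher in the C group, at 8.66, 7.86, 7.79, 8.37 and 7.97 in Chow 1 to Chow 5 and 7.63, 8.14, 8.27, 7.59 and 7.84 in Powder 1 to Powder 5. Its difference was 0.24 (standard error 0.21, exact permutation p = 0.302, FDR 0.0104), and Chow 1 and Chow 4 were its highest rats. Without them the difference was -0.023 and the call was lost. C3, a complement component, was called lower, with a difference of -0.17 (standard error 0.19, exact permutation p = 0.563, FDR 0.0317), and of -0.34 without Chow 1 and Chow 4, where the call held. Its lowest rat was Chow 2, at 6.21, while the others lay between 6.93 and 7.28. The median difference was 0.00014 over the 19 genes, of which 11 were flat, and 0.11 over the 8 varying genes, of which 7 had a positive difference. In all, 0 genes of the list were called higher once Chow 1 and Chow 4 were left out.

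None of the 12 matched genes of the endfoot water and potassium complex, the partners of aquaporin-4, varied or was called, and likewise none of the 11 matched folate enzymes around Aldh1l1. Of the endfoot genes 11 were flat, and so were all 11 folate enzymes, as were 92.6% of all probe sets. The absence of calls therefore says little about them. With 1 probe set per gene, 5.56% of the genes on the array varied, 1.22% were called higher and 0.83% lower. Of 14 matched genes of glutamate uptake and the glutamine cycle, 2 were called higher and 0 lower. One was Slc17a7, the vesicular glutamate transporter of cortical neurons, with a signal of 8.05 in Chow 1, of 6.62 to 6.91 in the remaining chow rats and of 6.66 to 6.79 in the powder rats. The other was Slc7a11, the cystine-glutamate exchanger of astrocytes, at 9.36 to 9.92 in chow rats and 9.32 to 9.63 in powder rats (difference 0.13, FDR 0.0499). Without Chow 1 and Chow 4 both calls were lost, with differences of 0.10 for Slc17a7 and 0.024 for Slc7a11, and the Slc7a11 call was also lost under quantile normalization. Slc17a7 has 2 probe sets, and with the probe sets of each gene averaged 0 genes of this list were called higher. Of 8 matched connexins and pannexins, Gjb2 was called higher (difference 0.38, FDR 0.0016), at 9.84 in Chow 1 and 9.60 in Chow 4 against 8.07 to 9.26 in the P group. Gjb2 encodes the gap-junction protein Cx26, known from the leptomeninges, and its call too was lost without those 2 rats, with a difference of -0.094. In the list of 13 genes of the S100 family and its receptor Ager, S100a6 was called higher (0.26, FDR 0.00866) and S100a13 lower (-0.0090, FDR 0.0394). Both calls were lost without Chow 1 and Chow 4 (-0.043 and -0.0091), and that of S100a13 was also lost under quantile normalization.

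Markers of other cells that share these genes or could enter the dissection were read beside them. Of 12 tanycyte genes, 4 varied and 0 were called, with a score of -0.15 to 0.20 in chow rats and -0.20 to 0.052 in powder rats. Of 6 matched ependymal genes, Rarres2 was called higher (0.17) and Ak7 (-0.21), Drc12 (-0.16) and Tmem212 (-0.097) lower. The Ak7 call held without Chow 1 and Chow 4 (-0.15), while those of Rarres2 (-0.12), Drc12 (-0.097) and Tmem212 (-0.039) were lost. In all 10 rats the exact permutation p was 0.444 for Rarres2, 0.0556 for Ak7, 0.111 for Drc12 and 0.175 for Tmem212. All 11 matched oligodendrocyte genes varied and 0 were called, and their score was highest in Chow 4 and Chow 2 (0.24 and 0.21) and lowest in Chow 5 (-0.23). None of the matched genes of oligodendrocyte precursors (6), microglia (11) or endothelium (9) was called. In the choroid plexus list Ttr was called higher (0.43, and 0.33 without those 2 rats, where the call held). Its standard error was 0.56 and its exact permutation p 0.468, with 7.18 to 9.50 in chow rats and 6.83 to 8.74 in powder rats. Of 12 neuronal genes, Gad2 (-0.14), Slc32a1 (-0.13) and Gad1 (-0.090), all of GABA neurons, were called lower. Without Chow 1 and Chow 4 the calls of Gad2 (-0.15) and Slc32a1 (-0.080) held and that of Gad1 (-0.070) was lost. The exact permutation p in all rats was 0.119 for Gad2, 0.0238 for Slc32a1 and 0.270 for Gad1. The score of cortex and hippocampus neurons rested on 3 varying genes, Slc17a7 among them. It stood at 0.78 in Chow 1, which also had the highest Gfap and Aldh1l1, and at -0.29 in Powder 1, which had the lowest. In Chow 4 and Powder 3, both above average for Gfap, the score was below average (-0.16 and -0.094). Tnnt1, of the thalamus list, was called lower (-0.42, and -0.41 without Chow 1 and Chow 4, where the call held). Its standard error was 0.25 and its exact permutation p 0.143. Chow rats read 6.53 to 6.87 and powder rats 6.37 to 7.67. The part of these tissues in the astrocyte values was not tested.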

How the data were processed

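Hypothalamic RNA of 10 rats was read on 1 array each. The authors summarized the scans in R with factor analysis (FARMS), and the deposited log2 values were not normalized again here. This method sets a probe set almost flat where its probes share no signal, so small changes of such sets cannot be seen. Arrays have no read depth, and the number of rats limits precision.

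The 57 hybridization controls among the 31099 probe sets were dropped. Of the rest, 20826 name 1 gene, 436 several and 9780 none. The members and the 18 other gene lists (219 of 245 entries matched over all 19) were chosen with earlier results of these data known. Named genes were all members, up to 5 called genes per list and the 5 most alike per varying member. Rank products (25 pairs, 100 permutations) were run in Python 3.11.15 with numpy 2.4.6 and tested on simulated data, and limma 3.58.1 in R 4.3.3 fitted diet alone. Correlations used 100000 resamples. The labels number the rats within each group and do not say that a number links a C rat to a P rat. Alternatives were quantile normalization, median centring, filters on level or SD, differences divided by the within-group SD, rank sums, a threshold of 0.01, a replicate block, means over probe sets, removal of group means, and omission of single rats or of Chow 1 together with Chow 4.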

Additional observations from a re-analysis of the deposited data

Results flagged for a closer look

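In a group of 5 rats, a rat is listed here where its gap to the nearest other rat is large for the group's range. Of 90 such groups tested 7 were listed, and chance lists about 1 in 20 groups. Among the astrocyte probe sets this was 1 case: Powder 5 read 8.63 on Aqp4 1368981_at, while the other powder rats read 8.965 to 8.997. The score of the glutamate uptake and glutamine cycle list reached 0.52 in Chow 1, against -0.13 to 0.037 in the remaining chow rats. Slc17a7, which is in that list, had a signal of 8.05 in Chow 1, against 6.62 to 6.91 in the remaining ones. The cortex and hippocampus neuron score, which also counts Slc17a7, reached 0.78 in Chow 1, against -0.16 to 0.0092 in the remaining chow rats. The same score was -0.29 in Powder 1, against -0.094 to -0.029 in the remaining powder rats. The microglia score was -0.43 in Chow 2, against 0.045 to 0.10 in the remaining chow rats. C3 had a signal of 6.21 in Chow 2, against 7.07 to 7.28 in the remaining chow rats.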

How the results depend on the processing

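Over 393 alternative values of 56 results, 327 were labelled the same as the main value. For a difference or a correlation this meant the same sign and the same side of the threshold. For a count it meant an equal count or, where neither was 0, a similar one, and many of these counts stayed at 0. The 2 astrocyte probe sets called higher became 1 under quantile normalization and with only probe sets of mean level above the median (Gfap in both), and 0 with only probe sets of SD above 0.1, with rank sums, with differences divided by the within-group SD, at a threshold of 0.01, and without Chow 1 and Chow 4. The whole array lost calls under the same settings: in place of 292 probe sets called higher there were 268, 125 of 15521, 1 of 1391, 1, 35, 93 and 49 in that order, so a count of 0 there says little about the astrocyte genes in particular. With 1 rat left out at a time the count was 0 to 2, and it was 0 without Chow 1 and without Chow 5. Over the whole array these fits called 119 (without Chow 1) to 355 (without Powder 3) probe sets higher, with 158 without Chow 4 and 254 without Chow 5. Gfap was called in 5 of the 10 fits with 1 rat left out, Aqp4 1372190_at in 5 and Aldh1l1 in 1 (without Powder 4). The differences of Gfap (0.086 to 0.22), Aqp4 1372190_at (0.048 to 0.12) and Aldh1l1 (0.024 to 0.11) stayed positive in all 10.

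Leaving out 1 rat turned the sign of Aqp4 1368981_at (-0.029 to 0.096), Slc1a3 1368565_at (-0.0055 to 0.10), Slc1a3 1388064_a_at (-0.018 to 0.050) and S100b (-0.037 to 0.016). Leaving out Chow 1 and Chow 4 turned Aqp4 1368981_at (-0.0085) and Aldh1l1 (-0.00037). The cause was not tested.

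The 7 flat astrocyte probe sets became 1 under quantile normalization and 0 with arrays centred on the median, since both shift every value of an array. The relation of Gfap and Aldh1l1 missed the adjusted threshold under quantile normalization (r = 0.76), median centring (0.77), removal of group means (0.75) and without Chow 1 and Chow 4 (0.69), and with 1 rat left out r was 0.67 to 0.84, and the threshold was missed without Chow 1, Chow 2, Chow 3, Chow 4, Powder 1, Powder 2 or Powder 4. The Slc1a3 pair had r = 0.61 to 0.80 with 1 rat left out and by r missed the threshold without Chow 1 or Chow 4, while by rho it passed there. The Aqp4 pair had r = -0.17 to 0.31. Signs turned with 1 rat left out for Gfap and Aqp4 (r = -0.31 to 0.29), Gfap and Slc1a3 (-0.30 to 0.19) and Aqp4 and Aldh1l1 (-0.45 to 0.18). With group means removed Gfap gave r = -0.037 with Aqp4 and -0.024 with Slc1a3, and without Chow 1 and Chow 4 -0.26 and -0.16.

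Same-numbered rats of the 2 groups deviated together at r = -0.33 to 0.28, and 0 of 5 matched their own number best, so the rats were treated as unpaired. The labels do not say whether a number marks a shared cage, litter or day. With the number as a replicate block, limma called 0 astrocyte probe sets, and Aqp4 1372190_at kept its difference of 0.088 with an unadjusted p of 0.0367 and an adjusted p of 0.995.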
